A study of Mus musculus with 9 samples.

Results

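Olfactory receptor genes (Olfr in the mouse) and vomeronasal receptor genes (Vmn1r and Vmn2r) were examined by RNA sequencing of whole embryonic mouse lungs taken at E18.5. They were chosen by name, and 132 of the 27207 genes of the count table qualified, of which 110 were Olfr, 10 Vmn1r and 12 Vmn2r genes. GENCODE M21 annotates 1738 genes with such names, and the 1607 outside the table were not analysed here. The sources used here do not give how the genes of the table had been selected. Lungs came from Dnmt1 conditional knockout (CKO) embryos, which carried Tbx4-rtTA together with Tet-O-Cre and were Dnmt1-D/D, and from wild type embryos. In 3 weak CKO lungs the phenotype was hypoplasia without bleeding, in 3 strong CKO lungs there was hypoplasia with widespread bleeding into the tissue, and 3 lungs were wild type. The combination of Tbx4-rtTA with a Tet-O-controlled Cre recombinase deletes in cells where Tbx4 regulatory sequence is active, chiefly lung mesenchyme, so a whole CKO lung also holds cells in which the gene was not targeted. The labels did not say whether wild type embryos carried the transgenes. Libraries are named by their titles, MUT_W for weak CKO, MUT_S for strong CKO and WT for wild type, and wherever 3 counts are listed they follow the order MUT_W_265_2, MUT_W_268_3, MUT_W_549_3, or MUT_S_265_5, MUT_S_268_4, MUT_S_860_3, or WT_265_1, WT_268_1, WT_549_2.

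Olfactory receptors are G protein-coupled receptors of the sensory neurons of the nose, each of which normally uses a single receptor gene from a very large family that lies in clusters on many chromosomes. Vmn1r and Vmn2r genes encode the pheromone receptors of the vomeronasal organ. A few olfactory receptors are also transcribed elsewhere, Olfr78 and Olfr558 in blood vessels among them. Dnmt1 is the methyltransferase that copies CpG methylation onto newly made DNA strands.

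Libraries held 25607595 to 33156732 counts. Dnmt1 itself had 1735, 2317 and 2573 counts in weak CKO lungs, 1646, 2207 and 1948 in strong CKO lungs, and 2267, 3745 and 3124 in wild type lungs. Its log2 change was −0.51 ± 0.17 (SE) in weak CKO, which did not pass edgeR's quasi-likelihood test (adjusted p = 0.0727), and −0.53 ± 0.17 in strong CKO, which did (adjusted p = 0.0433). As a check of the tissue, Sftpc, the surfactant protein of alveolar type 2 cells, had 152620 to 258291 counts in CKO libraries and 208206 to 296003 in wild type libraries. In whole lung, fewer cells of a type and less RNA per cell cannot be told apart.

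A short coding stretch is shown for the receptors that carry the result, because it lets near-identical copies be recognised. It covers the end of the third membrane-spanning segment, where olfactory receptors carry a conserved aspartate-arginine-tyrosine motif, and capitals mark the 3 codons of that motif. Each stretch is 42 bases long, read 5′ to 3′ from GENCODE M21 transcripts (GRCm38), and 106 of the 110 Olfr genes held one.
Olfr857: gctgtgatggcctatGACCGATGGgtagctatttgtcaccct
Olfr858-ps1: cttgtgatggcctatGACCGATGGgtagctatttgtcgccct
Olfr859: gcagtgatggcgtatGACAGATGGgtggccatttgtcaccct
Olfr1054: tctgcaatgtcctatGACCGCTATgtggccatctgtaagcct
Olfr194: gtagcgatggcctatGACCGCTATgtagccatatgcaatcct
Olfr193: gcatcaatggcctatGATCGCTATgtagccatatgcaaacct
Olfr152: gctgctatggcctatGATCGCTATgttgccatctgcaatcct
Olfr1012: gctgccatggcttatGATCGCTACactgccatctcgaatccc
Olfr316: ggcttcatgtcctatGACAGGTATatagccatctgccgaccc
Olfr857, Olfr858-ps1 and Olfr859, which lie near each other on chromosome 9, end the motif in the codon TGG, which only these 3 of the 106 genes did. Olfr857 differed from Olfr858-ps1 at 3 of the 42 bases and from Olfr859 at 5. Over the aligned coding sequence, Olfr857 was 96.5% identical to Olfr858-ps1 and 92.6% identical to Olfr859, so reads may be shared between these copies. The neighbours Olfr193 and Olfr194 were 70.4% identical.

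Of the receptor genes in the table, more had reads in Dnmt1 CKO lungs than in wild type lungs. The table held only 1 gene without a count in any library, so a gene without wild type reads stands in it through its CKO reads, and 6 of the 9 libraries are CKO. The detection counts are therefore a description of the genes in the table. At least 1 count was found for 116, 119 and 112 of the 132 genes in the weak CKO libraries, for 114, 114 and 118 in the strong CKO libraries, and for 57, 69 and 62 in the wild type libraries. No CKO library overlapped a wild type library. Over the whole table of 27207 genes, 25764 to 26279 had a count in CKO libraries and 25101 to 25669 in wild type libraries, so all 6 CKO libraries lay above the wild type libraries there too. Summed over the 3 libraries of a group, 130 genes had a count in weak CKO, 129 in strong CKO and 81 in wild type. A count in all 3 libraries was found for 97 genes in weak CKO, 96 in strong CKO and 43 in wild type.

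**Figure D1:**
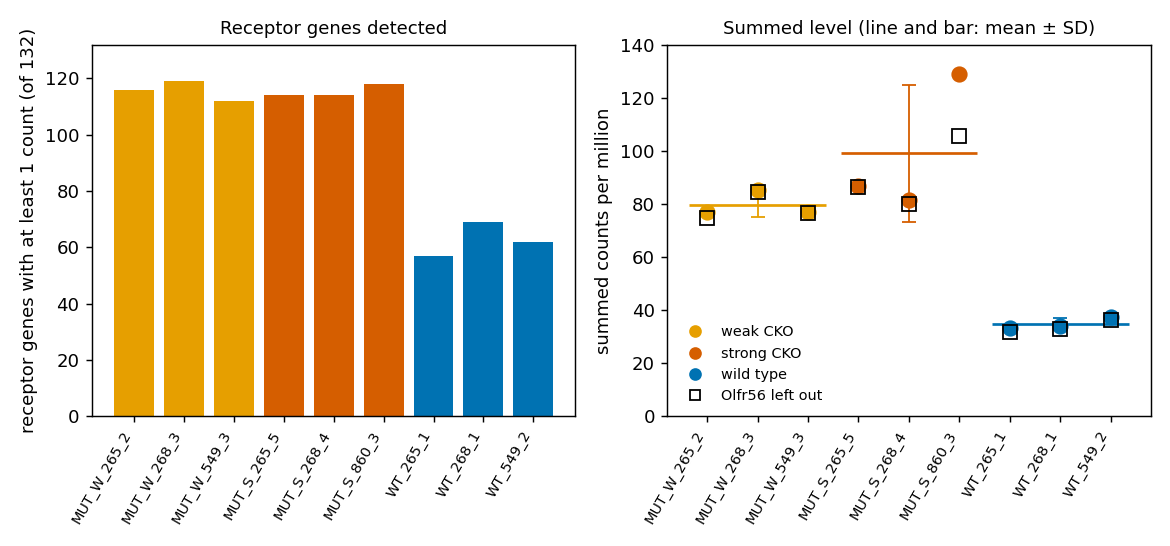
Left, number of the 132 receptor genes with at least 1 count in each library. Right, their summed CPM (counts scaled to the library total) per library (filled circles; lines and bars, mean ± SD of 3 libraries) and the same without Olfr56 (open squares). The 6 CKO libraries lie above the 3 wild type libraries in both panels, and MUT_S_860_3 stands above the other CKO libraries even without Olfr56.

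The summed level of the family was low everywhere. In counts scaled to the library total (CPM), it came to 76.8, 85.2 and 77.1 CPM in weak CKO libraries (mean 79.7 ± 4.76, SD, n = 3), 86.8, 81.4 and 129 CPM in strong CKO libraries (99.0 ± 25.9), and 33.2, 33.8 and 37.2 CPM in wild type libraries (34.7 ± 2.16). The weak CKO mean was 2.29 times and the strong CKO mean 2.85 times the wild type mean. The high value of MUT_S_860_3 came in part from Olfr56, an olfactory receptor gene that shares an exon on the same strand with Ifi47, an interferon-inducible GTPase. Olfr56 had 61, 25 and 19 counts in weak CKO, 17, 41 and 681 in strong CKO, and 50, 32 and 34 in wild type. Ifi47 had 3360 counts in MUT_S_860_3 and 423 or fewer in every other library, so both were highest in MUT_S_860_3, and the part of Ifi47 reads in the Olfr56 count was not tested. Without Olfr56 the sums were 78.5 ± 5.16 CPM in weak CKO, 90.6 ± 13.4 CPM in strong CKO and 33.5 ± 2.38 CPM in wild type.

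Of the 132 receptor genes, 40 had enough counts to pass the filter on low counts and were tested together with the other genes of the table (19374 in all). In weak CKO lungs 23 of the 40 rose against wild type and 0 fell in edgeR's test, where 9.09% of all genes tested rose and 5.38% fell. At an unadjusted p under 0.05, 25 were higher and 0 lower, and DESeq2 called 24 higher and 0 lower. In strong CKO lungs 26 of the 40 rose and 1 fell, where 14.6% of all genes tested rose and 11% fell. The 23 genes that rose in weak CKO also rose in strong CKO, in comparisons that share the wild type libraries. These shares among tested members are a description only, since a member without wild type reads passed the filter through its CKO reads alone and had to differ. The 5 tested members with 1 to 3 wild type reads also passed the filter through CKO reads alone. So did Olfr1318, Olfr1330, Olfr1029 and Olfr873, which had few wild type reads. Without a filter 131 receptor genes were tested, of which 33 rose and 0 fell in weak CKO, where 6.62% of all genes rose and 3.34% fell, and 42 rose and 2 fell in strong CKO, where 10.8% rose and 7.19% fell. Of the 92 that did not pass the filter, 61 had a higher mean CPM in both CKO groups than in wild type. This count is a description only, since a member without wild type reads could not be lower in CKO lungs. The same share over the other genes that did not pass the filter was not computed.

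By family, 21 of 33 tested Olfr genes rose in weak CKO and 24 of 33 in strong CKO. Of 4 tested Vmn2r genes 2 rose in both CKO groups, and of 3 tested Vmn1r genes 0 did in either. Of the 23 members that rose in both CKO groups, 14 had no wild type reads, and leaving out a library could not change that. Their calls in the fits that left out a library are therefore a description only. The same holds for the 5 of the 23 with 1 to 3 wild type reads, and for Olfr1318 and Olfr1330. All of these passed the filter through their CKO reads alone. Leaving out each library in turn, 20 of the 23 members were called in all 9 fits of both comparisons. The exceptions were Olfr1140, which was called in 8 fits and had too few counts to be tested in the fit without MUT_W_268_3, Olfr558, whose call in weak CKO was lost in 2 of 9 fits, and Olfr1330, whose call was lost in 3 of 9 fits in weak CKO and in 4 of 9 in strong CKO.

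Reads were absent from all 3 wild type libraries for 51 receptor genes, or 38.6% of the 132, against 2.25% of all 27207 genes and 2.07% of the other genes. Of these 51, 50 had CKO reads. In weak CKO 2 receptor genes (1.52%) had no reads, against 0.434% of all genes, and in strong CKO 3 (2.27%), against 0.753% of all genes. By family, 47 of the 51 were Olfr, 1 Vmn1r and 3 Vmn2r genes. A count in each of the 6 CKO libraries was found for 28 of them, and 39 had 10 or more counts over the 6 CKO libraries (76.5%). The same held for 419 of the 611 genes of the table without wild type reads (68.6%). Over all 51, counts per library came to 687, 1002 and 763 in weak CKO, 665, 702 and 1111 in strong CKO, and 0 in each wild type library. They made up 32.6% of all receptor gene counts in weak CKO and 30.1% in strong CKO. The gene without a count in any library was Olfr575.

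**Figure D2:**
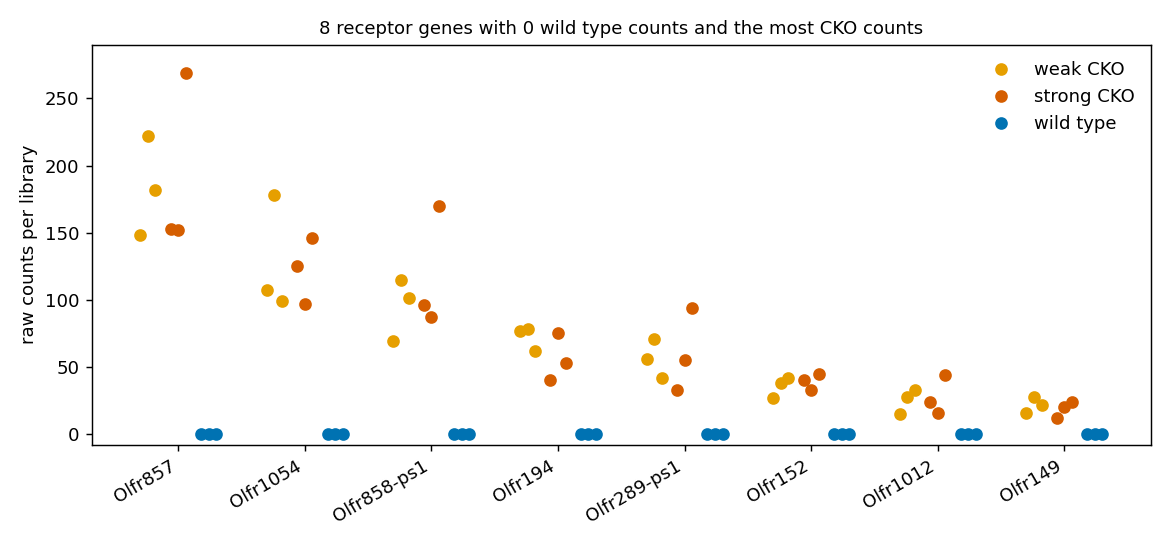
Raw counts per library (points) of the 8 receptor genes that had 0 counts in the wild type libraries and the most counts over the 6 CKO libraries. All 6 CKO libraries have reads of each gene and the 3 wild type libraries have none.

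Olfr857 (chr9:19709433-19714930, + strand, GRCm38) had the most reads of them. Its counts were 148, 222 and 182 in weak CKO, 153, 152 and 269 in strong CKO, and 0, 0 and 0 in wild type. It was at least 178-fold higher in weak CKO and at least 208-fold higher in strong CKO, measured against a floor of 3 counts over the 3 wild type libraries (edgeR adjusted p = 1.77e-05 in weak CKO and 1.08e-05 in strong CKO). Olfr857 passed the filter through its CKO reads alone, so these p-values are a description only. Olfr858-ps1, the annotated pseudogene next to it (chr9:19737451-19738380, + strand), had 69, 115 and 101 counts in weak CKO, 96, 87 and 170 in strong CKO, and 0, 0 and 0 in wild type. This pseudogene was at least 91.9-fold higher in weak CKO and at least 128-fold higher in strong CKO. Olfr859, further along the same chromosome, had 19, 14 and 21 counts in weak CKO, 11, 18 and 28 in strong CKO, and 0 in each wild type library. For all 3 of these genes MUT_S_860_3 held the most reads.

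Olfr1054 (chr2:86332135-86335433, − strand) had no 75-base word in common with any other annotated gene. Its counts were 107, 178 and 99 in weak CKO, 125, 97 and 146 in strong CKO, and 0, 0 and 0 in wild type. It was at least 124-fold higher in weak CKO and at least 133-fold higher in strong CKO (edgeR adjusted p = 3.04e-05 in weak CKO and 2.3e-05 in strong CKO). These p-values too are a description only, since it passed the filter through CKO reads alone. The lowest CKO library, MUT_S_268_4, still held 97 reads of it.

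Olfr194 (chr16:59116537-59121069, − strand) had 77, 78 and 62 counts in weak CKO, 40, 75 and 53 in strong CKO, and 0, 0 and 0 in wild type. It was at least 70.0-fold higher in weak CKO and at least 60.8-fold higher in strong CKO. Its neighbour Olfr193 had 26, 26 and 30 counts in weak CKO, 7, 31 and 14 in strong CKO, and 0, 1 and 0 in wild type. The ratio of Olfr193 to wild type was 79.4 in weak CKO (95% counting interval 13.9 to 3172) and 56.5 in strong CKO (9.70 to 2273). Both genes were lowest in the same CKO library, MUT_S_265_5.

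Olfr289-ps1, a pseudogene on chromosome 3, had 56, 71 and 42 counts in weak CKO, 33, 55 and 94 in strong CKO, and 0 in each wild type library. It was at least 54.5-fold higher in weak CKO and at least 65.9-fold higher in strong CKO. Olfr152, on chromosome 2, had 27, 38 and 42 counts in weak CKO, 40, 33 and 45 in strong CKO, and 0 in each wild type library, which made it at least 34.5-fold higher in weak CKO and at least 42.7-fold higher in strong CKO. Counts of Olfr1012, on the same chromosome, were 15, 28 and 33 in weak CKO, 24, 16 and 44 in strong CKO, and 0 in wild type. Olfr149 on chromosome 9 had 16, 28 and 22 counts in weak CKO, 12, 20 and 24 in strong CKO, and 0 in wild type. Of the 14 members without wild type reads that passed the filter, the coefficient of variation of CPM over the 6 CKO libraries ran from 18.2% to 47.7%, with a median of 32.4%.

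Some receptor genes with very few wild type reads had many in CKO lungs. Olfr316 (chr11:58752734-58759671, + strand) had 88, 103 and 80 counts in weak CKO, 94, 87 and 88 in strong CKO, and 0, 1 and 0 in wild type. It had the smallest edgeR adjusted p of the 40 tested receptor genes, 6.01e-06 in weak CKO and 4.24e-06 in strong CKO. Like Olfr857, it passed the filter through its CKO reads alone, so these p-values are a description only. With 1 wild type read, the ratio to wild type was 262 in weak CKO (95% counting interval 46.7 to 10398) and 292 in strong CKO (52.0 to 11580). Its CKO libraries lay between 80 and 103 counts, a narrow range beside those of Olfr857. Olfr784 (chr10:129384083-129390198, + strand) had 72, 74 and 60 counts in weak CKO, 73, 56 and 107 in strong CKO, and 1, 1 and 0 in wild type. Its ratio to wild type was 99.7 in weak CKO (27.2 to 829) and 128 in strong CKO (35.1 to 1064). For Olfr784, 26.1% of its 75-base words also occur in another gene.

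The Vmn2r genes that rose lie on chromosome 17 and were 95.5% identical to each other over aligned coding sequence. Vmn2r97 had 16, 27 and 13 counts in weak CKO, 8, 20 and 17 in strong CKO, and 1, 1 and 1 in wild type. Its ratio to wild type was 18.1 in weak CKO (95% counting interval 5.87 to 90.2) and 16.3 in strong CKO (5.23 to 81.9), with an edgeR adjusted p of 0.00141 in weak CKO and 0.00119 in strong CKO. Vmn2r96 had 15, 11 and 4 counts in weak CKO, 14, 15 and 10 in strong CKO, and 1, 0 and 0 in wild type. The calls of both held without each library in turn. Both genes passed the filter through their CKO reads alone, so these p-values and calls are a description only. The member of that family with the most reads, Vmn2r57, did not pass the test, with 18, 26 and 15 counts in weak CKO, 13, 13 and 18 in strong CKO, and 25, 13 and 23 in wild type. Among Vmn1r genes, Vmn1r90 had the most reads and did not pass either, with 18, 36 and 25 counts in weak CKO, 20, 18 and 38 in strong CKO, and 7, 28 and 43 in wild type. In weak CKO the log2 change of Vmn1r90 was −0.02 ± 0.50 and that of Vmn2r57 −0.10 ± 0.33. Both of these also overlap exons of other genes.

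Because Dnmt1 acts on CpG sites, the window of 250 bases before and 50 after the annotated start of Vmn2r97 is shown with its CpG sites in capitals (chr17:18914072-18914371, + strand, RefSeq, GRCm38.p6). For this gene the RefSeq start is the start codon itself and lies 22 bases inside the GENCODE transcript, so the window is not a mapped promoter.
Vmn2r97: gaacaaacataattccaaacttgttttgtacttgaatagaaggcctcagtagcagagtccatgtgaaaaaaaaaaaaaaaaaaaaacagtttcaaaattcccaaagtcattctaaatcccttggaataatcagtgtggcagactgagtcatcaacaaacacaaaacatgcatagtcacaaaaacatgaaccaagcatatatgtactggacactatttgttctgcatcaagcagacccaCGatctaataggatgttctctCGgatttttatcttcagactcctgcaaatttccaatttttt
The window holds 2 CpG sites, whereas the median over all 32851 RefSeq windows was 7. RefSeq windows were found for 100 of the 132 receptor genes, and their median was 1 CpG. For the 16 of the 23 rising genes that had a window the median was 1.5, and for the other receptor genes of the table it was 1. No CpG was found in 25.7% of the receptor gene windows and in 5.43% of all windows. In 66 of the 101 receptor gene windows the RefSeq start lay within 10 bases of a start codon, and DNA methylation was not measured here.

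Per length of annotated exon, which allows levels of genes to be compared, several receptors without wild type reads stood among the most abundant of the family in CKO lungs. Olfr289-ps1 had the highest level, 4.82 ± 1.13 CPM per kb in weak CKO and 5.73 ± 2.60 in strong CKO (SD, n = 3), over an exon of 369 bases. Olfr1033 came next with 4.21 ± 0.34 CPM per kb in weak CKO, 4.98 ± 0.88 in strong CKO and 2.60 ± 0.45 in wild type. Olfr858-ps1 had 3.21 ± 0.61 CPM per kb in weak CKO and 4.45 ± 1.47 in strong CKO. Olfr1054 had 2.85 ± 0.816 CPM per kb in weak CKO and 3.08 ± 0.55 in strong CKO. Olfr857 had 2.51 ± 0.344 CPM per kb in weak CKO and 2.92 ± 0.855 in strong CKO. In strong CKO, neighbours in this order differed by less than the larger of their SDs.

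The receptors with the most reads in wild type lung rose little or did not pass the test. Olfr1033 and the pseudogene Olfr1372-ps1 held 35.2% of all receptor gene counts in weak CKO, 34.3% in strong CKO and 54.8% in wild type. Olfr1033, on chromosome 2, had 525, 553 and 619 counts in weak CKO, 604, 475 and 718 in strong CKO, and 322, 281 and 415 in wild type. It rose by a log2 change of 0.69 ± 0.16 (SE) in weak CKO and 0.94 ± 0.16 in strong CKO (edgeR adjusted p = 0.016 in weak CKO and 0.00206 in strong CKO), and no CKO library was as low as a wild type one. Olfr1372-ps1 had 291, 358 and 304 counts in weak CKO, 314, 316 and 402 in strong CKO, and 226, 293 and 270 in wild type. Its log2 change was 0.23 ± 0.11 in weak CKO, which did not pass (adjusted p = 0.228), and 0.50 ± 0.11 in strong CKO, which did (adjusted p = 0.00944). The difference of strong minus weak CKO was 0.28 ± 0.11 for Olfr1372-ps1, which did not pass either (edgeR adjusted p = 0.873).

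**Figure D3:**
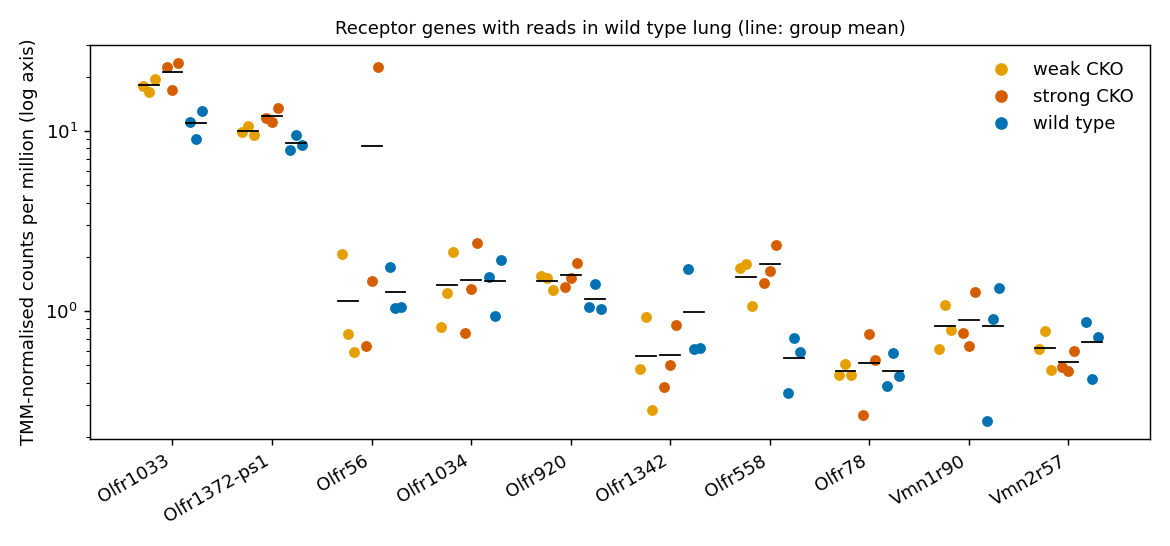
TMM-normalised CPM on a log axis, per library (points) with the group mean (lines), of 10 receptor genes with reads in wild type lung. Olfr1033 and Olfr558 lie higher in the 6 CKO libraries than in the wild type libraries, Olfr56 is high in 1 strong CKO library, and the groups overlap for Olfr1034, Olfr78, Olfr1342, Vmn1r90 and Vmn2r57.

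Among these, Olfr558, a receptor known from vascular smooth muscle, had 51, 61 and 34 counts in weak CKO, 38, 47 and 70 in strong CKO, and 10, 22 and 19 in wild type. It rose by a log2 change of 1.47 ± 0.34 (SE) in weak CKO and 1.71 ± 0.33 in strong CKO (edgeR adjusted p = 0.0166 in weak CKO and 0.00447 in strong CKO). Of 3 smooth muscle markers 0 passed in weak CKO, where 2 were higher at an unadjusted p under 0.05 and DESeq2 called 1, and Acta2 rose in strong CKO (log2 change 0.96 ± 0.26). The summed counts of Acta2, Myh11 and Tagln were 9598 to 14694 in weak CKO, 10169 to 15065 in strong CKO and 5708 to 9353 in wild type. Tagln had only 117 to 224 counts per library. Its log2 change was −0.08 ± 0.26 in weak CKO and 0.20 ± 0.26 in strong CKO, and it did not pass. The part of smooth muscle in the result for Olfr558 was not tested. Olfr78, a short-chain fatty acid receptor of blood vessels and the carotid body, had 13, 17 and 14 counts in weak CKO, 7, 21 and 16 in strong CKO, and 11, 18 and 14 in wild type, so its groups overlapped. Olfr78 had a log2 change of −0.01 ± 0.38 in weak CKO and 0.15 ± 0.38 in strong CKO, and it shares an exon with Olfr560.

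Olfr1034 had 24, 42 and 68 counts in weak CKO, 20, 37 and 71 in strong CKO, and 44, 29 and 62 in wild type. It lies next to Olfr1033 but did not pass the test (log2 change −0.06 ± 0.46 in weak CKO and 0.02 ± 0.46 in strong CKO). Olfr920 had a log2 change of 0.33 ± 0.22 in weak CKO and 0.44 ± 0.22 in strong CKO, and did not pass either. Olfr1342 had −0.78 ± 0.53 in weak CKO and −0.76 ± 0.54 in strong CKO, and WT_265_1 held 49 of its wild type reads against 19 and 20 in the other wild type libraries. Olfr1318, not among the most abundant, had 27, 55 and 26 counts in weak CKO, 26, 15 and 45 in strong CKO, and 1, 6 and 6 in wild type, and rose by a log2 change of 2.97 ± 0.57 in weak CKO and 2.81 ± 0.58 in strong CKO. Its CKO reads alone passed the filter, so this rise is a description only.

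Against wild type, 3 further genes rose in strong CKO without passing in weak CKO. They were Olfr1372-ps1, Olfr1029 and Olfr873. Olfr1029 had 18, 10 and 13 counts in weak CKO, 8, 13 and 15 in strong CKO, and 6, 0 and 0 in wild type. Olfr873 had 7, 11 and 11 counts in weak CKO, 18, 8 and 11 in strong CKO, and 6, 0 and 0 in wild type. The wild type reads of both came from WT_265_1 alone. In strong CKO the log2 change of Olfr1029 was 2.61 ± 0.86 and that of Olfr873 2.66 ± 0.87 (edgeR adjusted p = 0.0442 for Olfr1029 and 0.0424 for Olfr873), and each call was lost in 8 of 9 fits that left out a library. Olfr1029 and Olfr873 passed the filter through their CKO reads alone, so these p-values are a description only.

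The gene that fell, Olfr455 on chromosome 6, had 14, 17 and 15 counts in weak CKO, 2, 11 and 12 in strong CKO, and 19, 25 and 25 in wild type. Its log2 change was −1.34 ± 0.43 (SE) in strong CKO (edgeR adjusted p = 0.0423) and −0.63 ± 0.40 in weak CKO (adjusted p = 0.341). The call was lost in each of the 9 fits that left out a library, with edgeR adjusted p-values of 0.0524 to 0.0987.

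Between strong and weak CKO lungs edgeR called 0 of the 40 tested receptor genes higher and 0 lower, where 0% of all genes were called higher and 0.00516% lower. At an unadjusted p under 0.05, 2 were higher, Olfr1372-ps1 and Olfr1009, and DESeq2 called 0. Without a filter 0 were called higher and 0 lower, where 0.00368% of all genes were called lower. The smallest adjusted p was 0.873. For Olfr857 the difference of strong minus weak CKO was 0.22 ± 0.23 (log2, SE), for Olfr1054 0.11 ± 0.25 and for Olfr316 0.16 ± 0.23.

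Many of the receptor genes of the table are neighbours in the genome. When members next to each other among the annotated receptor genes, of the same family and no more than 100 kb apart, were joined, 64 of the 132 fell into 23 runs. Of the 23 genes that rose in both CKO groups, 14 lay in a run, 9 were on chromosome 2 and 4 on chromosome 9, where chromosome 2 held 30 and chromosome 9 held 13 of the 132 members. In 3 runs, with 16 members, no wild type library had a read, and all 3 are on chromosome 2.

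**Figure D4:**
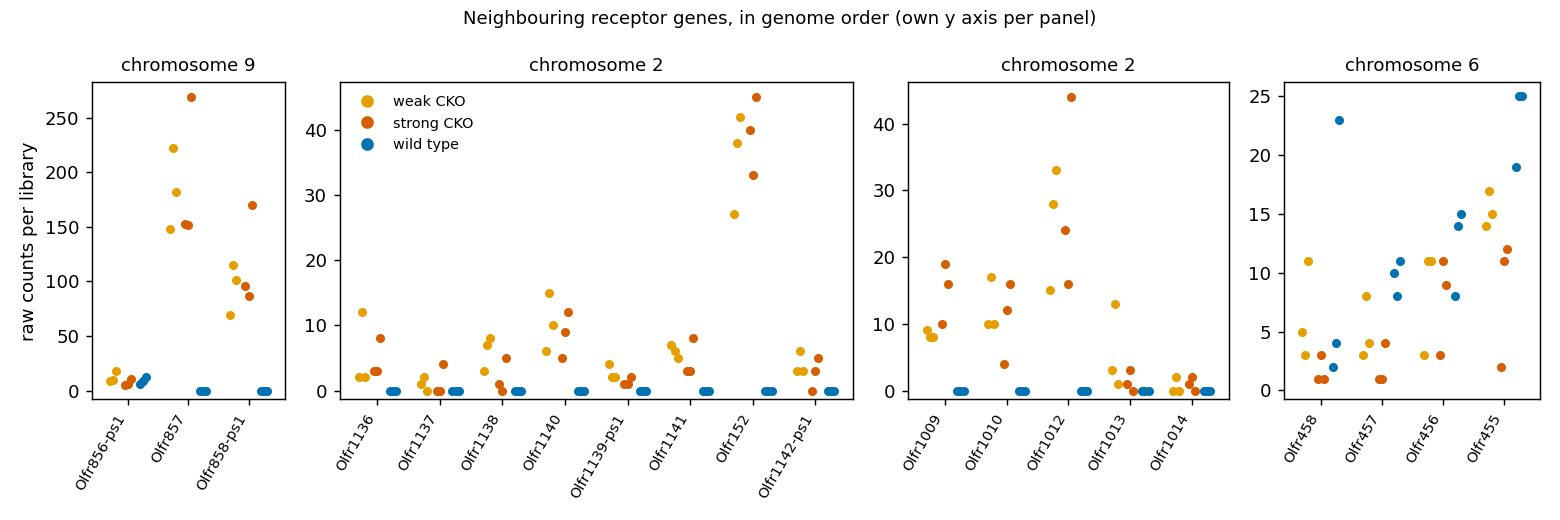
Raw counts per library (points) of neighbouring receptor genes in 4 runs, in genome order, each panel with its own y axis. On chromosome 9 the pseudogene Olfr856-ps1 has reads in wild type libraries while Olfr857 and Olfr858-ps1 have none, the chromosome 2 runs have no wild type reads, and on chromosome 6 the wild type libraries have reads of all 4 genes.

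The longest of these runs, with 8 members from Olfr1136 to Olfr1142-ps1 (chr2:87692881-87786831), held 53, 88 and 72 counts in weak CKO, 53, 52 and 89 in strong CKO, and 0 in each wild type library. Most were reads of Olfr152 and Olfr1140, and Olfr1137 had 7 over the 6 CKO libraries. The run of 5 from Olfr1009 to Olfr1014 (chr2:85715419-85778974) held 37, 68 and 52 counts in weak CKO, 40, 52 and 76 in strong CKO, and 0 in wild type. In it Olfr1009, Olfr1010 and Olfr1012 rose. The third, Olfr1305 to Olfr1307, held 22, 43 and 23 counts in weak CKO, 13, 21 and 38 in strong CKO, and 0 in wild type.

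Not every neighbour of a rising receptor gene passed the test. On chromosome 9, Olfr856-ps1 had 9, 10 and 18 counts in weak CKO, 5, 6 and 11 in strong CKO, and 6, 9 and 12 in wild type, beside Olfr857 and Olfr858-ps1. A run with 0 genes called higher in either CKO group was that of 4 from Olfr458 to Olfr455 on chromosome 6, which held 25, 39 and 41 counts in weak CKO, 7, 26 and 26 in strong CKO, and 39, 51 and 74 in wild type. In this run Olfr457 and Olfr458 had too few counts to be tested. Other runs, such as that from Olfr543 to Olfr545, also held no gene called higher. In the cluster of class I receptors on chromosome 7, the fish-like class, 12 members were in the table, of which 2 were tested, and only Olfr558 of these 2 rose.

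Genes of the table outside the family that lie nearest to the 23 rising receptors numbered 13. Annotated genes outside the table were not considered, and the distances ran from 3556 to 1440299 bases, so many are not close neighbours. Pkia, which rose in both CKO groups, lay 614597 bases from Olfr289-ps1. In weak CKO 3 rose, 4 did not pass and 6 were not tested, and in strong CKO 4 rose, 3 did not pass and 6 were not tested. Of all genes tested, 9.09% rose in weak CKO and 14.6% in strong CKO. Gm7769, which lies 17882 bases from Olfr857, had 13, 12 and 8 counts in weak CKO, 3, 8 and 13 in strong CKO, and 1, 1 and 1 in wild type, and rose by a log2 change of 3.26 in weak CKO and 2.95 in strong CKO. Gm7769 also passed the filter through CKO reads alone, so its rise is a description only. Lpcat4, the nearest to Olfr1318 at 80311 bases, rose by 0.51 in weak CKO and 0.65 in strong CKO.

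The genes that olfactory neurons use to signal from these receptors were looked at next. Of 16 olfactory transduction genes, 13 were tested and edgeR called 0 in either CKO group, with a median log2 change of 0.01 in each, where that of all genes tested was −0.01 in weak CKO and −0.000975 in strong CKO. At an unadjusted p under 0.05, 0 differed in weak CKO and 2 were higher in strong CKO, and DESeq2 called 0 in weak CKO and 1 in strong CKO. Gnal, the G protein subunit that couples olfactory receptors to adenylyl cyclase, had a log2 change of 0.28 ± 0.14 (SE) in weak CKO and 0.39 ± 0.14 in strong CKO. Cnga2, a subunit of the olfactory cyclic nucleotide-gated channel, had 156, 74 and 100 counts in weak CKO, 155, 89 and 92 in strong CKO, and 130, 101 and 88 in wild type. Omp, the marker of mature olfactory neurons, had 9, 8 and 2 counts in weak CKO, 7, 8 and 10 in strong CKO, and 9, 6 and 7 in wild type. Omp had 10 counts or fewer in every library, too few to be tested. Summed counts of the 9 olfactory sensory neuron markers in the table were 1089 to 1114 in weak CKO, 935 to 1056 in strong CKO and 1009 to 1090 in wild type. Of the 5 tested, edgeR called 0, while 3 had an unadjusted p under 0.05 in strong CKO and 0 in weak CKO, and DESeq2 called 1 in strong CKO.

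Among 16 genes of receptor trafficking and receptor choice, 2 rose and 2 fell in weak CKO, and 2 rose and 4 fell in strong CKO. The 2 that rose are a share near that of all genes tested, of which 9.09% rose and 5.38% fell in weak CKO and 14.6% rose and 11% fell in strong CKO. Lhx2, a homeodomain factor that binds olfactory receptor enhancers, had 12, 24 and 8 counts in weak CKO, 14, 11 and 17 in strong CKO, and 3, 1 and 3 in wild type, and rose by a log2 change of 2.53 ± 0.56 (SE) in weak CKO and 2.64 ± 0.56 in strong CKO. Lhx2 passed the filter through its CKO reads alone, so this rise is a description only. Atf5, a transcription factor of the response that stabilises receptor choice in olfactory neurons, rose by 0.73 ± 0.12 in weak CKO and 1.07 ± 0.12 in strong CKO. Ldb1, the partner of Lhx2, fell by 0.24 in weak CKO and by 0.27 in strong CKO on the log2 scale. Ebf2, a factor whose family also binds receptor enhancers, fell by 1.55 in weak CKO and by 1.44 in strong CKO. Rtp3 and Reep1, members of families that bring receptors to the cell surface, fell in strong CKO by 0.93 for Rtp3 and by 0.69 for Reep1, and did not pass in weak CKO, and strong against weak CKO did not pass for either.

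In vomeronasal transduction, 1 of 6 tested genes fell in both CKO groups and 0 rose. It was Gnao1, the G protein subunit that acts downstream of Vmn2r receptors, with a log2 change of −0.84 ± 0.14 in weak CKO and −1.19 ± 0.15 in strong CKO. Of 4 vomeronasal neuron markers, 3 were tested and 0 passed in edgeR, in DESeq2 or at an unadjusted p under 0.05, with summed counts of 1949 to 2368 in weak CKO, 1817 to 2062 in strong CKO and 1983 to 2796 in wild type. Muc5b, a mucin of glands and airway, was the single call among 2 tested olfactory sustentacular and gland cell markers. It had a log2 change of 2.39 ± 0.67 in weak CKO, which did not pass in edgeR (adjusted p = 0.0506) but was called by DESeq2, and it rose in strong CKO (log2 change 2.97 ± 0.67). The summed counts of that list were 19315 to 27920 in weak CKO, 20636 to 22438 in strong CKO and 13963 to 20667 in wild type. Nearly all were reads of Sec14l3, with 13918 to 27786 counts per library. Sec14l3 did not pass in either CKO group (log2 change 0.39 in each). Cyp2g1 had 0 to 5 and Ermn 1 to 6 counts per library, too few to be tested.

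Other chemoreceptors were few. The single trace amine receptor in the table had 1 to 2 counts per library in weak CKO, 0 to 1 in strong CKO and 0 to 1 in wild type. Of 2 tested taste receptor genes, Tas1r1, a subunit of the umami receptor, rose in weak CKO (log2 change 0.85 ± 0.21), and of 2 tested formyl peptide receptors 0 passed in edgeR, in DESeq2 or at an unadjusted p under 0.05. Among 6 tested genes of the guanylyl cyclase and Ms4a group, 2 rose in weak CKO and 3 in strong CKO. Ms4a7, also a macrophage gene, rose by 1.55 ± 0.26 in weak CKO and 1.72 ± 0.26 in strong CKO.

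Markers of other cells of the lung moved beside the receptors. Of 5 lung mesenchyme markers, 4 fell in weak CKO and 5 in strong CKO. Of all genes tested, 9.09% rose and 5.38% fell in weak CKO, and 14.6% rose and 11% fell in strong CKO. Of 5 markers of pulmonary neuroendocrine cells, 4 rose in both CKO groups. Among these, Chga and Resp18 passed the filter through CKO reads alone, so their calls are a description only. The summed counts of the 5 were 327 to 460 in weak CKO, 406 to 438 in strong CKO and 190 to 230 in wild type. Of 5 tested macrophage and lymphocyte markers, 3 rose in weak CKO and 4 in strong CKO. Of 5 lung epithelium markers 1 fell in weak CKO and 3 in strong CKO, and of 3 endothelium markers 1 fell in weak CKO and 3 in strong CKO. The summed counts of 6 erythroid genes were 120002 to 133015 in weak CKO, 186968 to 378194 in strong CKO and 121097 to 210774 in wild type, and edgeR and DESeq2 called 0 of them (0 in weak CKO and 2 in strong CKO at an unadjusted p under 0.05). Of thymus and spleen genes 1 was tested and 0 passed, with an unadjusted p under 0.05 in both CKO groups. That gene, Rag1, passed the filter through CKO reads alone. The part of these changes in the receptor results was not tested. Dazl, a germline gene known to be silenced by promoter methylation, had 4616 to 8592 counts in CKO libraries and 7 to 9 in wild type libraries. DNA methylation was not measured here, and a link between Dazl and the receptor results was not tested.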

How the data were processed

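RNA was sequenced from 9 lungs, with total RNA, TruSeq libraries and single reads of 75 bases per the labels' protocols. The table holds raw counts per gene deposited by the authors, RPKM values per the file headers, and gene lengths. The submitters' processing notes name the genome GRCm38.p6, the aligner STAR, the trimmers Trimmomatic 0.36 and cutadapt 2.5, and FastQC 0.11.8 and edgeR 3.28.1. The sources used here do not give the counting tool, annotation, strand setting or treatment of multi-mapping reads, and reads of near-identical, overlapping or antisense genes cannot be told apart. The labels do not say that lungs came from separate litters, and the p-values therefore cover only the spread among these 9 samples, which may be technical. All pairs of replicates differed by more than sampling noise.

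Counts were tested with edgeR 4.0.16 in R 4.3.3 (TMM factors 0.938 to 1.04, filterByExpr by group, robust quasi-likelihood F tests over all 9 libraries, two-sided, Benjamini-Hochberg adjustment over 19374 genes, threshold 0.05). The procedure was tested on simulated data. Errors of log2 changes are standard errors. A gene with 0 wild type counts is given as at least N-fold above a floor of 3 counts over the 3 wild type libraries (0.0327 CPM), and with 1 to 3 such counts as a ratio with a 95% counting interval; floors and intervals cover counting error only. The exact permutation test of 3 against 3 libraries cannot give p below 0.1 and was not used. Levels between genes are CPM per kb of GENCODE M21 exon. For 130 of the 131 receptor genes found in GENCODE M21, the length deposited by the authors equalled the summed lengths of the exons of all transcripts plus the number of exons, so the deposited RPKM was used in an alternative only. Runs, overlaps and shared 75-base words came from GENCODE M21, and promoter windows from RefSeq.

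Members and lists were chosen with earlier results of these data known. Named were the 12 members with the smallest adjusted p in each CKO group, the 6 most abundant in wild type, the 8 with 0 wild type counts and the most CKO counts, and the member with most counts per family. From each list up to 3 called genes with the smallest adjusted p, otherwise the 2 most abundant, could be named, and Dnmt1, Omp, Cnga2, Gnal and Trpc2 (not analysed here) in any case. Other genes, such as Olfr78, Olfr558 and those described with a run, were named after their values were seen. Alternatives were upper quartile factors, DESeq2 1.42.0, limma 3.58.1 on log2(RPKM + 1) and log2(RPKM + 0.1), other filters, only the groups compared, a replicate block, and leaving out each library.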

Additional observations from a re-analysis of the deposited data

How the results depend on the processing

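Receptor genes called higher in weak CKO stayed between 16 and 33 under the settings tried except a filter at a mean of 1 CPM, which left 9 of 13 tested. In strong CKO there were 42 without a filter, 10 at 1 CPM and 17 when only the groups compared were fitted, against 26. The fall of 1 gene in strong CKO became 2 without a filter, and 0 at 1 CPM or when only the groups compared were fitted. Leaving out each library gave 21 to 27 genes higher in weak CKO, 24 to 29 higher in strong CKO and 0 to 1 lower in strong CKO. Deviations of libraries that share a number in their names had correlations from −0.087 to 0.35. Those of libraries with different numbers had correlations from −0.38 to 0.19. Whether the numbers pair the samples was not tested, and the main fit did not use them. With a replicate block 23 genes were higher in weak CKO, 24 higher and 1 lower in strong CKO.

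At 10 or more counts, 80 receptor genes were detected in weak CKO, 78 in strong CKO and 37 in wild type, and 95 had under 10 wild type counts. Leaving out 1 library, 125 to 129 were detected in weak CKO, 124 to 128 in strong CKO and 73 to 77 in wild type, and 55 to 59 had no wild type counts. Summed CPM was 72.1 in weak CKO and 28.9 in wild type without members overlapping another exon, 45.7 in weak CKO, 57.8 in strong CKO and 15.7 in wild type without the 3 members with the most counts, and 63.7 in weak CKO and 26.1 in wild type without pseudogenes. The sum without Olfr56 was added after seeing the data. For named genes, 0 log2 changes reversed and 7 lost their call on the RPKM scale (Olfr859, Vmn2r97 and Olfr1009). Depth limits what can be said of the 92 receptor genes that were not tested, whose median was 18 counts over the 9 libraries.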

Other observations

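The gene length deposited with the table changes how receptor genes rank. It was at the median 1.60 times the annotated exon bases of a receptor gene and up to 8.58 times, since exons shared by transcripts were counted more than once. For Olfr1033 the deposited length of 13846 bases stands beside 4261 exon bases. In weak CKO Olfr1033 had rank 2 among the 131 receptor genes by CPM per kb of exon and rank 4 by deposited RPKM, while Olfr194 had rank 9 and rank 14. The counts, and the comparisons between groups made from them, do not use this length.

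Reads were also found for receptor pseudogenes. Of the 10 annotated pseudogenes, 7 had no wild type reads, where 38.6% of the 132 receptor genes and 2.25% of all genes had none. Of the 5 tested, Olfr858-ps1, Olfr289-ps1 and Olfr1010 rose in both CKO groups, Olfr1372-ps1 rose in strong CKO, and Olfr856-ps1 did not pass. The share of all genes tested that rose was 9.09% in weak CKO and 14.6% in strong CKO. Olfr858-ps1, Olfr289-ps1 and Olfr1010 had no wild type reads and passed the filter through CKO reads alone. They had to differ, so their calls are a description only.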
